A study of Mus musculus with 8 samples.

Results

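The inflammasome genes described here were 10 genes, chosen by symbol from the 24552 genes of a count table of mouse lacrimal gland (LG) RNA. They were the sensors Aim2, Nlrp3, Nlrp6 and Nlrp10, the adaptor Pycard, the inflammatory caspases Casp1 and Casp4, the pore former Gsdmd, and the cytokines Il1b and Il18. The samples were exorbital LGs of female C57BL/6J mice aged 10 to 11 months, 4 fed ad libitum (AL) and 4 on calorie restriction (CR), which had received 40% less food for 4 months from an age of 6 to 7 months. One library per animal was made from total RNA with a kit that reads only the 3′ ends of transcripts, so that each transcript gives about 1 read whatever its length, and levels of different genes are compared here without dividing by length. Levels are in CPM, the reads of a gene scaled to a common library size, with library sizes scaled by RLE factors.

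Inflammasomes are protein complexes of the cytosol through which cells of the innate immune system, and many epithelial cells, respond to microbial products and to damage. A sensor recruits the adaptor ASC, encoded by Pycard, which brings in pro-caspase-1. The active caspase cleaves the precursors of interleukin-1β and interleukin-18 and also gasdermin D, whose fragment opens pores in the plasma membrane. Most of these steps act on protein that is already made, so RNA levels measure how much of the machinery can be made and not whether a complex was assembled. The LG makes the watery part of the tear film, and leukocytes gather in it with age. The question the comparison addresses is whether RNA of these genes differed in LGs of CR mice.

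Of the 10 genes, 5 were counted often enough for the fit over all genes (Aim2, Pycard, Casp1, Casp4 and Il18), 4 were counted too rarely for it (Nlrp3, Nlrp10, Gsdmd and Il1b), and Nlrp6 had no read in any library. No inflammasome gene was called different between the diets. The test was the quasi-likelihood F test of edgeR, with p-values adjusted by the Benjamini-Hochberg method over the 11211 genes tested, and a call needed both a fold of 1.5 or more and an adjusted p below 0.05. By this rule 0 of the 5 tested members were lower in CR, against 0.785% of all genes, and 0 were higher, against 1.2% of all genes. At an unadjusted p under 0.05 the number of members was also 0, against 16.7% of all genes. DESeq2 called 0 members, against 2.4% of its genes with an adjusted p called lower and 3.14% called higher, and limma voom called 0, against 0.455% lower and 0.473% higher. No member had all CR libraries below all AL libraries, which 5.2% of all genes showed, and none had all CR libraries above, which 4.58% showed. The median log2 fold change of the 5 tested members (CR minus AL) was -0.06, beside 0.01 over all genes tested, and 4 of the 5 had an estimate below 0, as did 5477 of the 11211 genes tested. The fold changes that the data leave possible are wide for all tested members but Pycard, and they are given with each gene below.

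Some properties of the libraries bear on every value. Totals ran from 12051881 to 22156511 counts per library, so that a floor of 3 counts stood between 0.152 and 0.231 CPM. Genes of the parotid gland, a salivary gland that lies close to the exorbital LG, summed to between 12010 and 41180 CPM in AL, to 54380 CPM in CR_4 and to between 242400 and 297500 CPM in the 3 other CR libraries. Of them Prb1, Prh1 and Prp2, which encode proline-rich proteins of saliva, were called higher in CR by edgeR, 3 of 7 against 1.2% of all genes, while limma voom called 2 (Car6 and Prb1) and DESeq2 all 7. Lacrimal gland markers (Aqp5, Lpo, Pax6, Obp1a, Lcn11 and Pip) summed to between 172800 and 193300 CPM in AL, to 178300 CPM in CR_4 and to between 79210 and 134600 CPM in the 3 other CR libraries. Most of that sum was Obp1a, with 147750 to 163029 CPM in AL, 152614 CPM in CR_4 and 58966 to 89888 CPM in the 3 others. Of the 6 lacrimal markers, 4 had the lower mean in CR, against 5477 of all 11211 genes tested, and edgeR called 0. In the parotid and lacrimal sums CR_4 stood apart from its group, and a chi-square of counts per degree of freedom set it at 88.8 to 144 from the AL libraries and at 625 to 762 from the CR libraries. In Prb1 and Prh1 it did not, with 418 and 360 CPM in CR_4 and 233 and 217 CPM in CR_3. The AL libraries had at most 90.4 CPM of Prb1 and 9.24 CPM of Prh1. Without CR_4 the log2 fold changes were -0.04 for Aim2, -0.24 for Pycard, -0.57 for Casp1, -0.01 for Casp4 and -1.36 for Il18, and no member was called. The part of these differences in the values of the inflammasome genes was not tested. The parotid score, the mean log2 level of the parotid genes, ran from 3.555 to 7.997 in AL and from 10 (CR_4) to 13.38 in CR. Because the score separated the diets, a fit with it as a covariate cannot tell its part from that of diet. In that fit the log2 fold changes were -0.58 for Aim2, 0.33 for Pycard, -1.67 for Casp1, 1.03 for Casp4 and -1.36 for Il18, and no member was called.

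The genes lie on 6 chromosomes of the mouse genome (build GRCm38, GENCODE vM21 annotation), all as protein-coding genes. Casp1 (chr9:5298517-5307265, plus strand) and Casp4 (chr9:5308828-5336783, plus strand) are neighbours, and Il18 (chr9:50554827-50581840, plus strand) is on the same chromosome. Aim2 is at chr1:173350879-173466040 on the plus strand, Nlrp3 at chr11:59541568-59566956 on the plus strand, and Gsdmd at chr15:75862327-75867408 on the plus strand. Nlrp6 (chr7:140920902-140929192, plus strand), Nlrp10 (chr7:108921852-108930178, minus strand) and Pycard (chr7:127989708-127993867, minus strand) share a chromosome, and Il1b is at chr2:129364570-129371139 on the minus strand. An exon of Gm45205 overlaps an exon of Pycard on the opposite strand, and one of Il1bos overlaps Il1b in the same way. The strand setting of the counting is not given in the sources used here, so reads of those partners may not be separable. In the last 600 bases of the members' transcripts, 0 windows of 75 bases, the read length, were shared with another gene.

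RefSeq promoter windows (GRCm38.p6) were matched for 8 of the 10 members, and 3 windows held a match to one of the motifs searched on both strands. These 3 are shown, because they include the most counted member, Pycard, and 2 of the sensors. Each line gives the 250 bases before the annotated start, 5′ to 3′ on the strand of the gene, with the match in capitals. The Aim2 window (chr1:173420354-173420603, plus strand) and the Pycard window (chr7:127993868-127994117, minus strand) hold GAGGAAGT, the core of sites for the myeloid and B cell factor PU.1, or its reverse complement. One Nlrp3 window (chr11:59541319-59541568, plus strand) holds the reverse complement of GGANTTTCC, a core of NF-kB sites. Another Nlrp3 window (chr11:59542436-59542685, plus strand) holds no match.
Aim2: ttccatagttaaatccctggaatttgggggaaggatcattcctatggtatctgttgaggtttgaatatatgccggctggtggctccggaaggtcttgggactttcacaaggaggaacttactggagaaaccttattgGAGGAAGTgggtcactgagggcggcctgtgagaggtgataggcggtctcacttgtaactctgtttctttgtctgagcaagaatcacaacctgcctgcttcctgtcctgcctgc
Pycard: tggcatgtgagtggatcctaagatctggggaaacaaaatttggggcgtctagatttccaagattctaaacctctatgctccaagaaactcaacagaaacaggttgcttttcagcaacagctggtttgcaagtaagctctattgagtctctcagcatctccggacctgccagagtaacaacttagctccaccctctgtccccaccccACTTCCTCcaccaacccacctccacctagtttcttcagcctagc
Nlrp3: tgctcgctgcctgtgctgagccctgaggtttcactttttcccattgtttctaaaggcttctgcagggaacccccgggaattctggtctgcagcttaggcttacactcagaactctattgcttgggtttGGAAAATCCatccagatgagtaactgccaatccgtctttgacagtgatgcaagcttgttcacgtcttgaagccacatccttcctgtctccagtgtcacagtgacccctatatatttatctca
The matches begin 113 bases before the start for Aim2, 44 for Pycard and 122 for Nlrp3. The search took in 300 bases, the 250 shown and the first 50 after the start, and among all 32851 windows of 300 bases 3.2% held the PU.1 core and 1.25% the NF-kB core. The interferon-stimulated response element core GAAANNGAA was held by 8.56% of all windows and the gamma-activated site TTCNNNGAA by 8.3%, and by 0 of the 10 windows of the matched members. One of these, that of Il18, ends at position 50554749, before the GENCODE start of the gene at 50554827, and did not pass a check of its place against that annotation. The Aim2 window passed the check but lies inside the GENCODE span of the gene (chr1:173350879-173466040), not at its outer end. A match is only a run of letters in these windows.

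Among the sensors, Aim2 was the only gene with more than a few reads per library. AIM2 binds double-stranded DNA in the cytosol. Its level was 1.69, 2.45, 4.08 and 1.47 CPM in AL_1 to AL_4 and 3.04, 1.95, 2.04 and 2.33 CPM in CR_1 to CR_4. The groups overlapped, AL_3 was the highest library and AL_4 the lowest, and all CR values lay inside the AL range. The mean was 2.42 ± 1.18 CPM in AL and 2.34 ± 0.493 CPM in CR (SD, n = 4 each). The log2 fold change was -0.05 ± 0.40 (SE), with an adjusted p of 0.976 by edgeR (quasi-likelihood, Benjamini-Hochberg). Its 95% interval, from -0.91 to 0.82, holds levels in CR from 0.531 to 1.76 times those in AL.

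NLRP3, which responds to potassium efflux and membrane damage, was near the limit of detection in LG RNA. Nlrp3 had 0, 3, 0 and 3 counts in AL_1 to AL_4 and 3, 4, 0 and 2 counts in CR_1 to CR_4. Only CR_2 was above 3 counts, and 3 libraries, 2 of them AL, had none. The mean was 0.0840 ± 0.0978 CPM in AL and 0.140 ± 0.108 CPM in CR (SD, n = 4), and a two-sided exact permutation test of the difference gave p = 0.486, where the smallest p that 4 against 4 can give is 0.0286.

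Nlrp10, a small member of the family that lacks the leucine-rich repeats of its relatives, had 1 count in AL_3, 3 counts in CR_1 and 0 in the 6 other libraries. Neither is above the floor, and the exact permutation test gave p = 1. Nlrp6, best known from intestinal epithelium, had 0 counts in 8 of 8 libraries. A count of 0 allows a level of up to 0.152 CPM in the deepest library (AL_4), a share of 1.35e-05% of its reads, and of up to 0.231 CPM in AL_1. A difference in Nlrp3, Nlrp6 or Nlrp10 was not detectable at this depth.

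Pycard, the adaptor gene, was by far the most counted member and the one measured with the least error. It had 44.7, 38.6, 31.3 and 44.0 CPM in AL_1 to AL_4 and 36.2, 31.5, 33.3 and 50.9 CPM in CR_1 to CR_4. CR_4 was the highest library and AL_3 the lowest, so the extremes went against the order of the means. The mean was 39.7 ± 6.20 CPM in AL and 38.0 ± 8.81 CPM in CR (SD, n = 4), with a log2 fold change of -0.06 ± 0.20 (SE) and an adjusted p of 0.923 by edgeR (quasi-likelihood, Benjamini-Hochberg).

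The 95% interval for Pycard, from -0.49 to 0.36, holds levels in CR between 0.713 and 1.29 times those in AL, and in this fit leaves out a change of 1.5-fold in either direction. The interval reached past 1.5-fold lower without AL_3 (to -0.61) and without CR_4 (to -0.63), and past 1.5-fold higher with the parotid score as a covariate (to 1.14). Pycard stood at percentile 89.1 of mean level among the genes tested, where Aim2 stood at 24.1, Casp4 at 16.9, Casp1 at 12.5 and Il18 at 11.7. It gave between 64.0% and 89.5% of the reads of all 10 genes, and the lowest share was in AL_3. The lowest Pycard level (31.3 CPM) was above the highest level of any other member (4.22 CPM, Il18 in AL_3), whereas every other neighbouring pair in the order of means, Aim2, Casp4, Casp1, Il18, Gsdmd, Il1b, Nlrp3 and Nlrp10, overlapped across libraries.

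**Figure D1:**
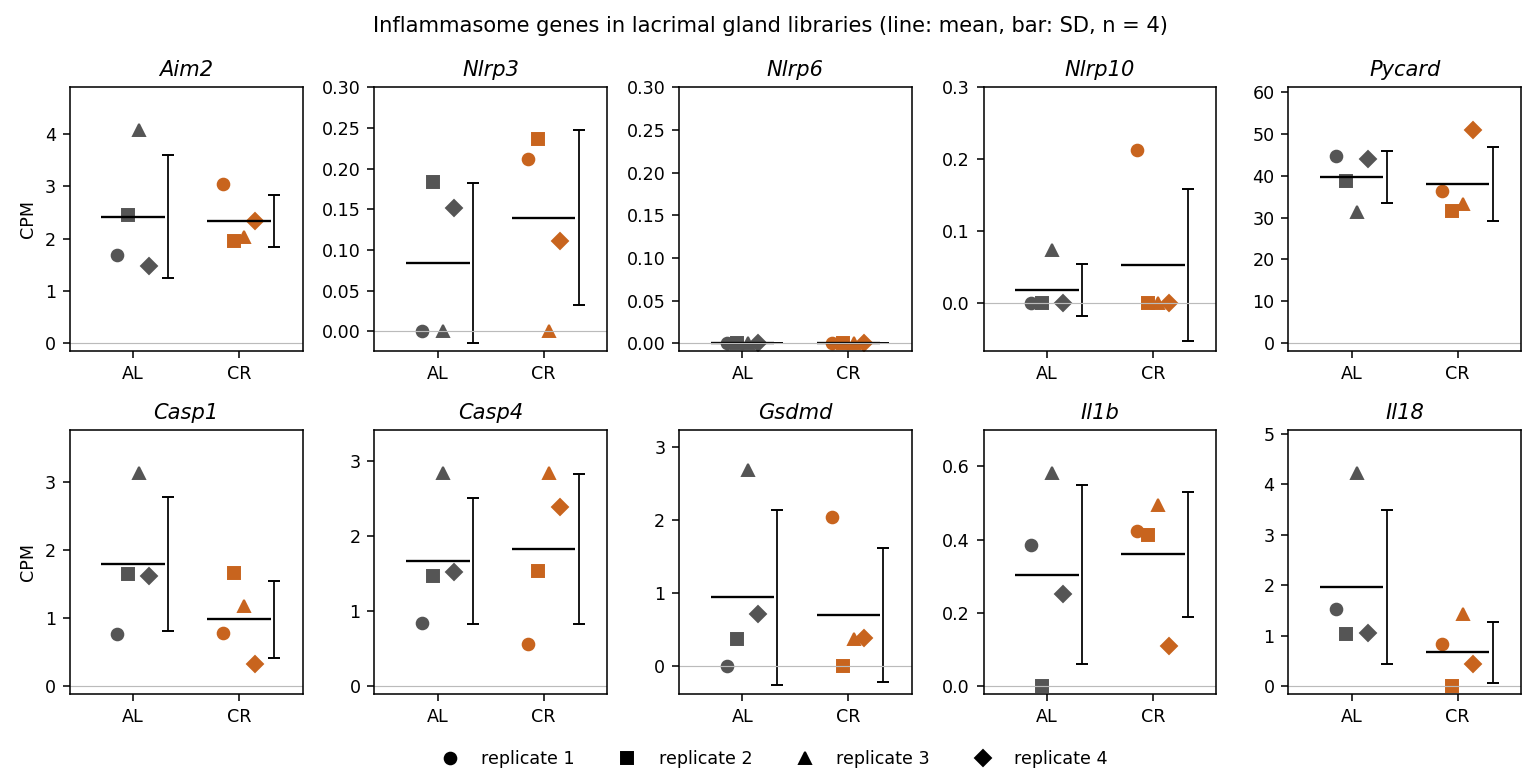
Level in CPM of each of the 10 inflammasome genes in the 4 AL (grey) and 4 CR (orange) libraries, with the mean as a line and the SD as a bar; each panel has its own linear axis, and the marker shape gives the replicate number. The groups overlap in all 9 genes with a read, Pycard lies between 31.3 and 50.9 CPM while all other values are at most 4.22 CPM, and AL_3 (grey triangle) is the highest library for Aim2, Casp1, Gsdmd, Il1b and Il18.

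The 2 caspases differed in their estimates. CASP1 is the protease that ASC recruits, and CASP4 (also called caspase-11 in mice) binds bacterial lipopolysaccharide directly and cleaves gasdermin D. Casp1 had 0.770, 1.65, 3.13 and 1.62 CPM in AL_1 to AL_4 and 0.777, 1.66, 1.18 and 0.333 CPM in CR_1 to CR_4. The highest library was AL_3 and the lowest CR_4, and the 6 others were mixed by group.

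The mean of Casp1 was 1.79 ± 0.980 CPM in AL and 0.985 ± 0.564 CPM in CR (SD, n = 4). The log2 fold change was -0.86 ± 0.57 (SE), and it did not pass the test, with an adjusted p of 0.499 by edgeR (quasi-likelihood, Benjamini-Hochberg). The 95% interval ran from -2.10 to 0.38. With 1 library left out at a time, the estimate ran from -1.23 (without CR_2) to -0.46 (without AL_3).

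Casp4 had 0.847, 1.47, 2.84 and 1.52 CPM in AL_1 to AL_4 and 0.565, 1.54, 2.85 and 2.39 CPM in CR_1 to CR_4. The highest values of both groups were nearly equal, and the lowest library was CR_1. Its mean was 1.67 ± 0.838 CPM in AL and 1.83 ± 1.0 CPM in CR (SD, n = 4), and the log2 fold change was 0.14 ± 0.53 (SE, 95% interval -1.02 to 1.30), with an adjusted p of 0.939 by edgeR (quasi-likelihood, Benjamini-Hochberg). The ratio of Casp4 to Casp1 lay between 0.727 and 1.1 in the 4 AL libraries, CR_1 and CR_2, and was 2.42 in CR_3 and 7.17 in CR_4. CR_4 had 6 counts of Casp1, with an exact Poisson interval of 2.20 to 13.1 counts, which covers counting error only. The difference between the fold changes of the 2 genes was not tested.

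Gsdmd, whose product forms the pore, varied more between mice of 1 group than between the groups. Its counts were 0, 6, 37 and 14 in AL_1 to AL_4 and 29, 0, 6 and 7 in CR_1 to CR_4. A library of each diet had none, and AL_3 and CR_1 held 66 of the 99 reads. The mean was 0.943 ± 1.2 CPM in AL and 0.702 ± 0.916 CPM in CR (SD, n = 4), and the exact permutation test, two-sided, gave p = 0.714. Without AL_3 the difference turned to 0.343 CPM higher in CR.

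Il1b encodes the precursor of interleukin-1β, a cytokine of fever and neutrophil recruitment whose RNA is low until a cell is primed. It had 5, 0, 8 and 5 counts in AL_1 to AL_4 and 6, 7, 8 and 2 counts in CR_1 to CR_4. The groups overlapped and AL_2 alone had no read. The mean was 0.305 ± 0.244 CPM in AL and 0.361 ± 0.171 CPM in CR (SD, n = 4), with p = 0.714 by the exact permutation test. In a fit with no filter on low counts the 95% interval of its log2 fold change ran from -2.10 to 2.60, and that of Gsdmd from -2.62 to 1.76.

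Il18 had the largest estimate among the tested members. Interleukin-18 is made as a precursor by epithelial cells and macrophages without priming, and it drives interferon-γ production by T and NK cells. Its level was 1.54, 1.04, 4.22 and 1.06 CPM in AL_1 to AL_4 and 0.848, 0, 1.42 and 0.444 CPM in CR_1 to CR_4. AL_3 stood apart at the top with 58 counts, CR_2 had no read, and only CR_3 of the CR libraries lay within the AL range.

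The mean of Il18 was 1.97 ± 1.52 CPM in AL and 0.679 ± 0.605 CPM in CR (SD, n = 4). The log2 fold change was -1.53 ± 0.82 (SE), with an unadjusted p of 0.0874 and an adjusted p of 0.391 by edgeR (quasi-likelihood, Benjamini-Hochberg), so it did not pass the threshold. The 95% interval ran from -3.31 to 0.26, or from 0.101 to 1.2 times the AL level. Without AL_3 the log2 fold change was -0.84, and without CR_3 it was -2.18, the lowest and highest size among the fits that left out 1 library.

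**Figure D2:**
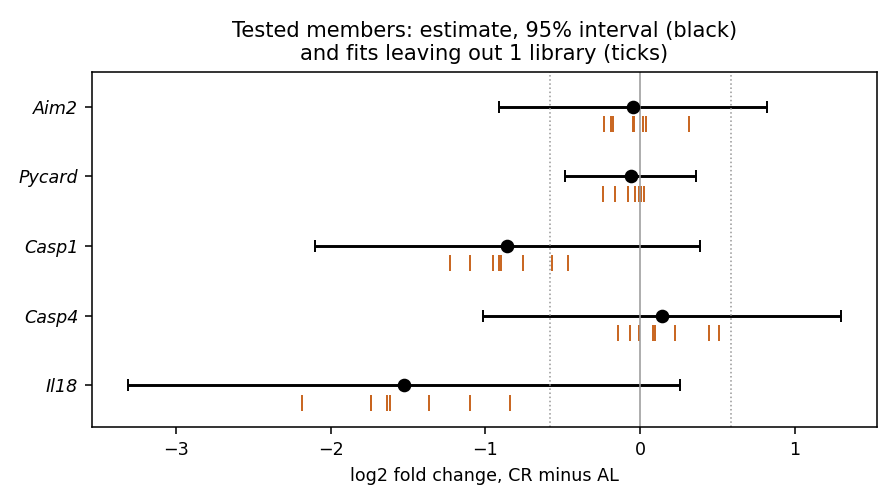
Log2 fold change (CR minus AL) of the 5 tested members from the edgeR fit, with its 95% interval (black) and the estimates of the 8 fits that each left out 1 library (orange ticks, where the gene passed the filter); dotted lines mark a 1.5-fold change. All 5 intervals include 0, that of Pycard (-0.49 to 0.36) is the shortest, and that of Il18 (-3.31 to 0.26) the longest.

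Marker genes were read to see which cells the libraries held. AL_3 was the highest library for 5 of the 9 members with a read (Aim2, Casp1, Gsdmd, Il1b and Il18). The summed level of 13 macrophage markers was 330 CPM in AL_3, 124 to 172 CPM in the 3 other AL libraries and 75 to 139 CPM in CR. That of 7 T cell markers was 26.3 CPM in AL_3, 5.70 to 9.80 CPM in the 3 other AL libraries and 2.90 to 6.60 CPM in CR.

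Ptprc, which encodes the pan-leukocyte antigen CD45, had 39.5 CPM in AL_3, between 10.7 and 13.8 CPM in the other AL libraries and between 4.22 and 9.26 CPM in CR, with a log2 fold change of -1.66 ± 0.42 (SE) and an adjusted p of 0.0635 by edgeR (quasi-likelihood, Benjamini-Hochberg). Of the tested macrophage markers, 12 of 13 had the lower mean in CR, against 5477 of all 11211 genes tested, at a median log2 difference of -0.85. Of them 1 was called lower by edgeR and by DESeq2 (Lyz2, the macrophage lysozyme) but 0 by limma voom. At an unadjusted p under 0.05 there were 8 of 13, all lower in CR, against 16.7% of all genes in either direction. The defining macrophage markers Adgre1, Csf1r and Cd68 were not called, and Adgre1 had all CR libraries below AL. In bulk RNA, fewer cells of a type and less RNA per cell cannot be told apart.

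The other leukocyte lists were mostly too rare for the fit. The 6 B cell markers summed to 2.53 to 12.1 CPM in AL and 0.424 to 1.28 CPM in CR, and Ms4a1 had 0.456 to 4.29 CPM in AL and 0.141 to 0.371 CPM in CR, without overlap. DESeq2, which took all 6, called 4 lower (Cd22, Cd37, Cd79b and Ms4a1), against 2.4% of its genes. The 6 dendritic cell markers summed to 3.68 to 14.4 CPM in AL and 1.39 to 2.29 CPM in CR, and DESeq2 called 1 of them lower (Itgax). Most of the sum was Itgax itself, with 3.31 to 12.4 CPM in AL and 0.888 to 2.16 CPM in CR. The T cell marker Cd3e had 0.0507 to 2.04 CPM in AL and 0 to 0.680 CPM in CR, with overlap, and DESeq2 called 1 of the 7 T cell markers lower (Cd3d). The 6 neutrophil markers summed to at most 1.83 CPM in any library, and S100a8 was at 0 in 1 AL and 3 CR libraries. Of the 6 leukocyte markers tested, 5 had the lower mean in CR, and edgeR called 0, limma voom 0 and DESeq2 3 (Cd52, Cd53 and Ptprc, lower in CR), with 4 at an unadjusted p under 0.05 by edgeR, against the shares of all genes given above. Of the 6 epithelial markers tested, 0 had the lower mean in CR, and edgeR called 0, limma voom 0 and DESeq2 2 (Cldn4 and Krt18, both higher), with 2 at an unadjusted p under 0.05 by edgeR, and Epcam lay between 45.0 and 83.2 CPM in all libraries. Among all 11211 genes tested, 5477 had the lower mean in CR. The part of these cell types in the values of the members was not tested.

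**Figure D3:**
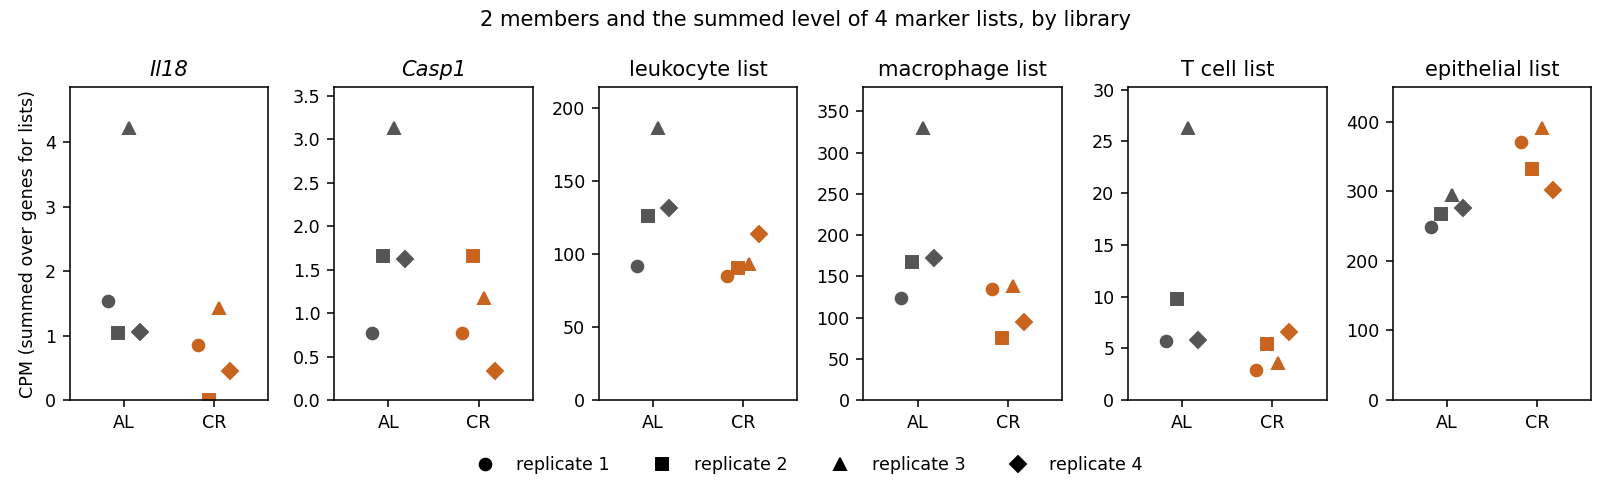
Level of Il18 and Casp1 and summed level of the leukocyte, macrophage, T cell and epithelial marker lists in each library, in CPM on linear axes from 0; colour gives the diet (AL grey, CR orange) and shape the replicate number. AL_3 is the highest library in Il18 (4.22 CPM), Casp1 (3.13 CPM) and the 3 leukocyte lists. Its epithelial sum (294.5 CPM) is the highest in AL, and all AL sums (from 248.5 CPM) lie below all 4 CR sums (302.2 to 390.6 CPM).

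The wider pathway was read from lists of other sensors, activators, priming factors, caspases, pore formers, cytokines and receptors. Of 65 such genes in the table, 38 were tested and 0 were called in either direction, against the same 0.785% and 1.2% of all genes. The lower mean was in CR for 26 of the 38, against 5477 of all 11211 genes tested, at a median log2 difference of -0.19. An unadjusted p under 0.05 was found for 4 of the 38, against 16.7% of all genes, limma voom called 0, and DESeq2, which took 59 of them, called 1 (Il1r2, lower in CR).

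Among the 3 tested sensors, Ifi204, a DNA sensor of the AIM2 family, had a log2 fold change of -1.11 ± 0.53 (SE, adjusted p = 0.319), Ifi207 of the same family -0.30 ± 0.36, and Naip2, whose product detects a rod protein of bacterial secretion systems, 0.83 ± 0.60, with adjusted p from the same edgeR fit here and in the rest of the pathway. The genes that activate sensors included Txnip, which varied widely within both diets, with 51.0 ± 63.4 CPM in AL and 101 ± 89.9 CPM in CR (SD, n = 4). Irf1 and Brcc3 had log2 fold changes of -0.14 ± 0.31 and -0.34 ± 0.20 (SE).

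The priming genes, which carry the toll-like receptor and NF-kB signal that raises Nlrp3 and Il1b, had estimates close to 0 among the most counted. The inhibitor gene Nfkbia had a log2 fold change of 0.12 ± 0.18, the kinase gene Irak1 of 0.00 ± 0.16 and the NF-kB subunit gene Rela of 0.08 ± 0.31 (SE), and the median of the 11 tested was -0.04. Among the other caspases, Casp8, which starts apoptosis and can also stand in for caspase-1, had a log2 fold change of 0.27 ± 0.38 (SE). Ninj1, which ruptures the membrane after pores have formed, had a log2 fold change of 0.29 ± 0.27 (SE), and Gsdme and Gsdma had 22 and 20 reads in all 8 libraries together.

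Of the related cytokines only Il33, an epithelial and stromal alarmin, was tested, with 6.49 ± 2.42 CPM in AL and 3.67 ± 0.715 CPM in CR (SD, n = 4), a log2 fold change of -0.82 ± 0.31 (SE) and an adjusted p of 0.200. Il1a and Il1f9 had 1 read each. The receptors and antagonists of the interleukin-1 family had the lower mean in CR in 7 of 7 tested genes, against 5477 of all 11211, at a median log2 difference of -0.65. By edgeR 0 of the 7 were called, with 2 at an unadjusted p under 0.05, against 16.7% of all genes. Il1r1, the signalling receptor of interleukin-1, averaged 13.4 ± 4.39 CPM in AL and 7.62 ± 4.17 CPM in CR (SD, n = 4) with an adjusted p of 0.314 from the edgeR fit, and Il1rap and Sigirr had log2 fold changes of -0.07 ± 0.27 and -0.23 ± 0.38 (SE).

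A single tested pathway gene, Il1r2, had groups that did not overlap, where 5.2% of all genes tested had all CR libraries below AL. It is named after its values were seen. So is the sensor gene Naip5, counted too rarely for the fit, with 0.304 to 0.924 CPM in AL and 0 to 0.186 CPM (at most 3 counts) in CR. Il1r2, the decoy receptor that binds interleukin-1 without signalling, had 2.23, 2.08, 4.73 and 2.08 CPM in AL_1 to AL_4 and 1.06, 0.710, 0.804 and 0.721 CPM in CR_1 to CR_4. Its log2 fold change was -1.75 ± 0.44 (SE), with an adjusted p of 0.0630 by edgeR (quasi-likelihood, Benjamini-Hochberg), which does not pass the threshold. Il18r1, the binding chain of the interleukin-18 receptor and also chosen after seeing its values, had a log2 fold change of -2.08 ± 0.79 (SE) and an adjusted p of 0.199, with 0.693, 4.35, 2.77 and 1.06 CPM in AL_1 to AL_4 and 0, 0.887, 0.495 and 0.666 CPM in CR_1 to CR_4, so the groups overlapped.

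**Figure D4:**
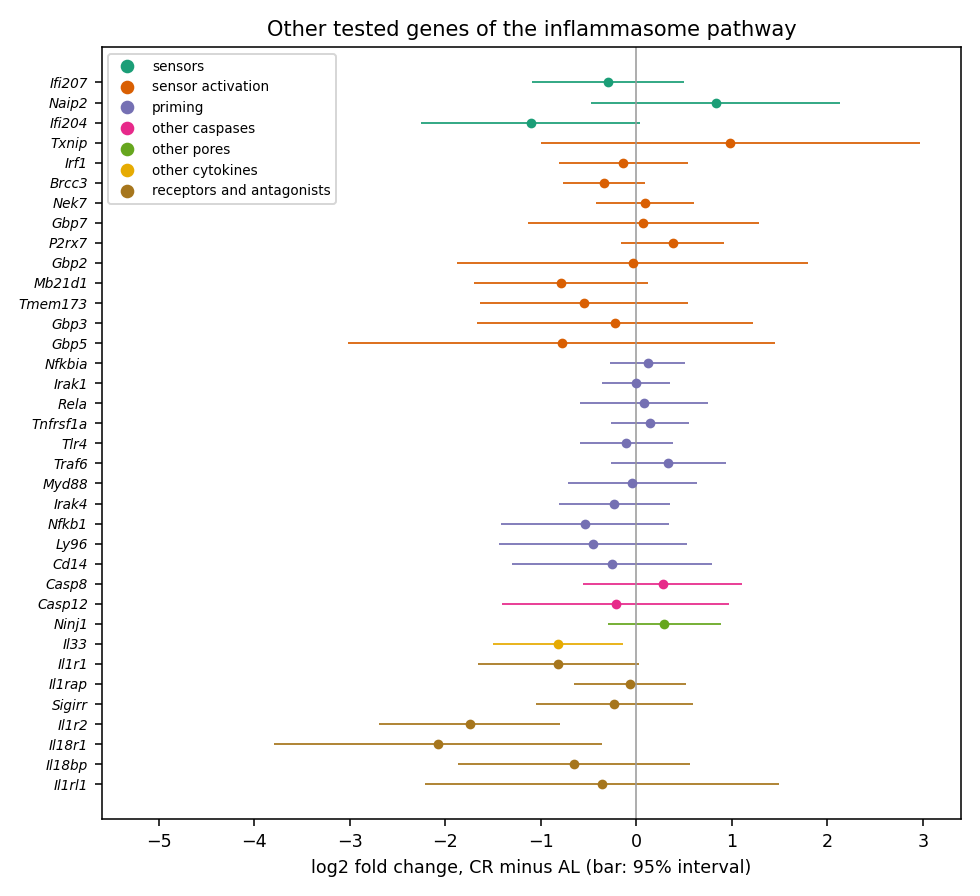
Log2 fold change (CR minus AL) with its 95% interval for 36 of the 38 other pathway genes that were tested, grouped by list (colour) and ordered by mean level within a list. No gene was called, the interval of 3 of the 36 leaves out 0, and the 7 receptors and antagonists all have estimates below 0.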

How the data were processed

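LG RNA was measured in 4 AL and 4 CR mice. The authors deposited raw counts per gene, made from single reads of 75 bases by trimming with cutadapt, alignment to mm10 with STAR and counting with HTSeq. Their log2-normalised table was not used. Of 24557 rows, 5 repeated symbols were dropped, and 16735 of the remaining 24552 genes had a count. In R 4.3.3, genes passing edgeR 4.0.16's filterByExpr were scaled by RLE factors and tested by quasi-likelihood with Benjamini-Hochberg adjusted p (limma 3.58.1 and DESeq2 1.42.0 as alternatives); the SE is the log2 fold change over the square root of F. Members that failed the filter were compared in CPM by two-sided exact permutation tests over 70 arrangements, raw p. The fit was tested on simulated data. The named genes were all members, called pathway genes, up to 3 pathway genes per list with the highest mean level, and defining markers. The members and lists were chosen with earlier results of these data known. The Poisson intervals and the floors cover counting error only, whereas the 95% intervals of fold changes come from the fit and include the spread between mice. Every pair of libraries differed by more than sampling noise. The labels do not tie libraries to the cohorts the mice were kept in, and protein sequences were not used here. A few genes of the lists are not reported here by name.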

Additional observations from a re-analysis of the deposited data

Results flagged for a closer look

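In 50 sets of 4 libraries (members and list sums, per diet) the gap between an extreme library and its neighbour was compared with the range; chance flags about 1 in 20 sets, and 4 were past Dixon's critical value at the 95% level. Il18 was one, with AL_3 at 4.22 CPM and a gap of 0.844 of the AL range. The dendritic cell sum was another, also in AL_3, at 14.4 CPM and 0.848 of the range, and most of it was Itgax (12.4 CPM in AL_3). Nlrp10 stood out in both diets only because a single library of each had a read, at 0.0728 CPM in AL_3 and 0.212 CPM in CR_1, both at or under the floor of 3 counts.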

How the results depend on the processing

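No member was called under any of the 17 alternatives to the reported fit, and the median log2 fold change of the tested members ran from -0.24 to 0.02 when 1 library was left out and was -0.58 with the parotid score as a covariate. Il18 and Casp1 were below 0 in every alternative that fitted them, which the minimum of 10 counts in every library did not. With the replicate number as a block (replicate block), Il18 was -1.74 with an unadjusted p of 0.0232 and an adjusted p of 0.150 by edgeR's quasi-likelihood test; it also had an unadjusted p of 0.0387 without CR_3. The correlations of deviations of same-numbered libraries were 0.182, 0.0995, 0.278 and 0.507, and 5 of 8 libraries correlated best with their own number; pairing was taken to need every value above 0.1, which 1 misses narrowly, so whether the numbers pair the mice is not settled by these values. The sign of 3 tested and 3 rare members turned under some alternatives. Aim2 was 0.070 by limma voom, 0.033 with the replicate block, and ranged from -0.23 to 0.32 over the fits without 1 library (0.32 without AL_3, 0.04 without CR_2, 0.02 without CR_3). Pycard was 0.33 with the parotid score and ranged from -0.24 to 0.02 (0.0058 without AL_1, 0.025 without CR_2, 0.00071 without CR_3). Casp4 ranged from -0.14 to 0.51 (-0.06 without AL_1, -0.14 without CR_3, -0.01 without CR_4). Without 1 library, the difference in mean CPM (CR minus AL) ranged from -0.0182 (without CR_1) to 0.053 for Nlrp10, from -0.690 to 0.343 (without AL_3) for Gsdmd, and from -0.0459 (without AL_2) to 0.148 for Il1b. The counts over all genes, 88 lower and 134 higher, were 316 and 413 by DESeq2, 51 and 53 by limma voom, 165 and 271 with no filter, 312 and 388 with the replicate block, and 0 and 3 with the parotid score; without 1 library they ranged from 25 to 247 lower and from 35 to 453 higher, with the most called without CR_4. The cause was not tested. At 12051881 to 22156511 counts a library, changes in Nlrp3, Nlrp6, Nlrp10 and Il1b could not be resolved. Nor could a change in Gsdmd, whose counts ran from 0 to 37 within AL and from 0 to 29 within CR.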
